A study of Mus musculus with 18 samples.

Results

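The acyl-CoA thioesterases described here are 10 mouse genes, Acot1, Acot2, Acot3, Acot4, Acot5, Acot7, Acot8, Acot9, Acot11 and Acot12, followed over 3 fat depots and 2 cell fractions. They were chosen by name and with their measured levels in these samples known, so their levels and differences are a description and carry no test. On the arrays they have 12 probes of 41174: one each, except Acot4 and Acot11 with 2. Of the 10 genes, 8 were tested among 19222 genes, because the filter asked that some group have the probe well above background on each of its 3 arrays. Acot3 and Acot12 did not reach that limit. Each gene is read from its brightest such probe.

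RNA came from young adult male C57BL/6 mice. Interscapular brown, inguinal and epididymal fat was digested with collagenase into floating adipocytes and a pelleted stromal-vascular fraction (SVF), the mixture of precursor, vascular and immune cells, from which erythrocytes were lysed. The 6 groups are brown adipocyte, brown SVF, inguinal adipocyte, inguinal SVF, epididymal adipocyte and epididymal SVF, with 3 biological replicates each, 18 one-colour arrays in all. No treatment or genotype separates them, and the labels do not say whether fractions of one animal were paired or animals pooled. A level is the log2 signal minus the log2 75th percentile of its array, so 0 is that percentile and 1 unit is a doubling. Levels of different probes are not comparable with each other.

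Acyl-CoA thioesterases hydrolyse acyl-CoA to free fatty acid and coenzyme A, the reverse of the step run by the acyl-CoA synthetases, and so set the pool of activated fatty acid in a compartment. Type I enzymes form a tight gene cluster on mouse chromosome 12 and differ in location: Acot1 is cytosolic, Acot2 mitochondrial, and Acot3, Acot4 and Acot5 peroxisomal. Acot8 is peroxisomal, Acot9 mitochondrial and Acot7 mainly cytosolic, with high expression in brain. Acot11, also called Them1 or BFIT, was described as a brown fat thioesterase induced by cold. Acot12 is a cytosolic acetyl-CoA hydrolase known mainly from liver. Several of the type I genes are known targets of the fatty acid receptor PPAR alpha in liver.

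The probes that carry the results below are shown by their first 30 of 60 bases, 5′ to 3′, as deposited with the arrays, with mm8 coordinates. Acot4 and Acot11 have 2 entries because their probes behave differently.
Acot11, probe 1, chr4:106242716-106242775, minus strand: gtcttgggccctagcctacattttccaaat
Acot11, probe 2, chr4:106244615-106244674, minus strand: cacaactccctcaataggagtggaatctga
Acot1, chr12:84907250-84907309, plus strand: tatcaaaatagtgctgattcaagggctggg
Acot2, chr12:84882869-84882928, plus strand: ggggaaacctcatatatattatcacaatgt
Acot4, probe 1, chr12:84933619-84933678, plus strand: tgctggatgacatgaaattcatgtttaggg
Acot4, probe 2, chr12:84932960-84933019, plus strand: cttctgggtctttccctaggagctgatgtc

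The promoters of the genes that were high in brown adipocytes are shown from 250 bases before to 50 after the annotated start, from RefSeq on GRCm38. Starts of Acot11 are numbered by coordinate, and on the minus strand the second lies upstream of the first. Capitals mark matches on either strand. The motif searched for nuclear receptors was AGGTCA, a single copy of the sequence they bind. The other motifs were the CCAAT box, the TATA box as TATAAA, the GC box as GGGCGG and the E-box as CACGTG.
Acot11, first start, chr4:106799782-106800081, minus strand: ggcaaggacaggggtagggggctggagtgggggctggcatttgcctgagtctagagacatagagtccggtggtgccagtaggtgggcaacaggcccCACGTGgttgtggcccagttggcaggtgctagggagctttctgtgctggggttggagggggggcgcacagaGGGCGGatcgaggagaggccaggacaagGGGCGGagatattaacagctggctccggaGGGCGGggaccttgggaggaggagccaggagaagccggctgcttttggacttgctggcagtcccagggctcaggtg
Acot11, second start, chr4:106804958-106805257, minus strand: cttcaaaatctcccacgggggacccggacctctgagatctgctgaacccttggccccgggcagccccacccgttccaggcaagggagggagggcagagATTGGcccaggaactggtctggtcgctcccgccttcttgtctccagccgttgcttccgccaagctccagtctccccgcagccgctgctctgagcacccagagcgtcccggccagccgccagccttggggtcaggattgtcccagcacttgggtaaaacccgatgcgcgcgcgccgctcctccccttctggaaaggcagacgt
Acot1, chr12:84009252-84009551, plus strand: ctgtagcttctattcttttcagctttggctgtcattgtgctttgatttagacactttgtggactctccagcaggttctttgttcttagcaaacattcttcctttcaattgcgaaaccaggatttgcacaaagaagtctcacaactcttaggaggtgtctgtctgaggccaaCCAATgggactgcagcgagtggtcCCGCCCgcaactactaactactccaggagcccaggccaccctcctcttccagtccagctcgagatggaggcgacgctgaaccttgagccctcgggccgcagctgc
Acot2, chr12:83987611-83987910, plus strand: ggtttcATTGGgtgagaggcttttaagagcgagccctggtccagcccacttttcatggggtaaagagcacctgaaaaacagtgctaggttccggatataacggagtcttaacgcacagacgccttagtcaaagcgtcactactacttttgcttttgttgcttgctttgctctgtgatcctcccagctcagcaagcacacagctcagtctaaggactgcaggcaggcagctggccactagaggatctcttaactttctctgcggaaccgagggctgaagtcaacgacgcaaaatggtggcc
Acot4, chr12:84038129-84038428, plus strand: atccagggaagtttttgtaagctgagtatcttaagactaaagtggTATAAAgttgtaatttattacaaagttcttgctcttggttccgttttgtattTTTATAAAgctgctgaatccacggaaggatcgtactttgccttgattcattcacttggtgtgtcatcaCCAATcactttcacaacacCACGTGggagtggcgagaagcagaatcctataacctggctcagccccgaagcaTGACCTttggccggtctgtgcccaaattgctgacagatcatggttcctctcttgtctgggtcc
Among 32851 promoters of the same length AGGTCA was present in 16.3%, CCAAT in 37.4%, TATAAA in 13.6%, GGGCGG in 35.7% and CACGTG in 7.15%. An exact direct repeat of AGGNCA with 1 base between copies, the general form that PPAR alpha binds, was present in 0.381% and in none of the windows printed here. Repeats with a mismatch were not searched for. Of the printed promoters only that of Acot4 held AGGTCA, at position -13 on the minus strand. These matches describe letters only, and no binding was measured.

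Adipocyte markers followed the labels in every depot, and those of other cells in part. Of 10 mature adipocyte markers, 9 were higher in adipocytes than in SVF in brown fat and 10 in each of the other depots. Adipoq, which encodes adiponectin, was at 7.41 to 8.79 on the 9 adipocyte arrays and at 0.65 to 4.42 on SVF arrays, except brown SVF replicate 2 at 7.16. Ucp1, the uncoupling protein of brown fat, was at 7.24 to 8.11 in brown adipocytes and 3.64 to 4.50 in brown SVF. It was at 1.99, 2.18 and 4.34 in inguinal adipocytes and at -3.34, -1.05 and 4.51 in epididymal adipocytes, in order of replicate. Wt1, a mesothelial gene, was at 4.45 on inguinal SVF replicate 1 and not well above background on the other inguinal SVF arrays. Of 10 macrophage markers 8 were lower in adipocytes than SVF in brown fat, 0 in the inguinal and 1 in the epididymal depot (median differences -3.52, -0.60 and -1.31). Of 10 progenitor and fibroblast markers 9, 7 and 5 were lower (-3.64, -1.66 and -1.69), of 9 lymphocyte markers 1, 0 and 2, and of 8 endothelial markers 1, 0 and 0. All brown and all SVF arrays were read with one version of the scanner software and all inguinal and epididymal adipocyte arrays with another, on other slides. In inguinal and epididymal fat, and between brown and white adipocytes, group and software cannot be told apart, while the brown fractions share software, slides and scan days. In bulk RNA a lower share of cells of one type and less RNA per cell cannot be told apart.

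**Figure D1:**
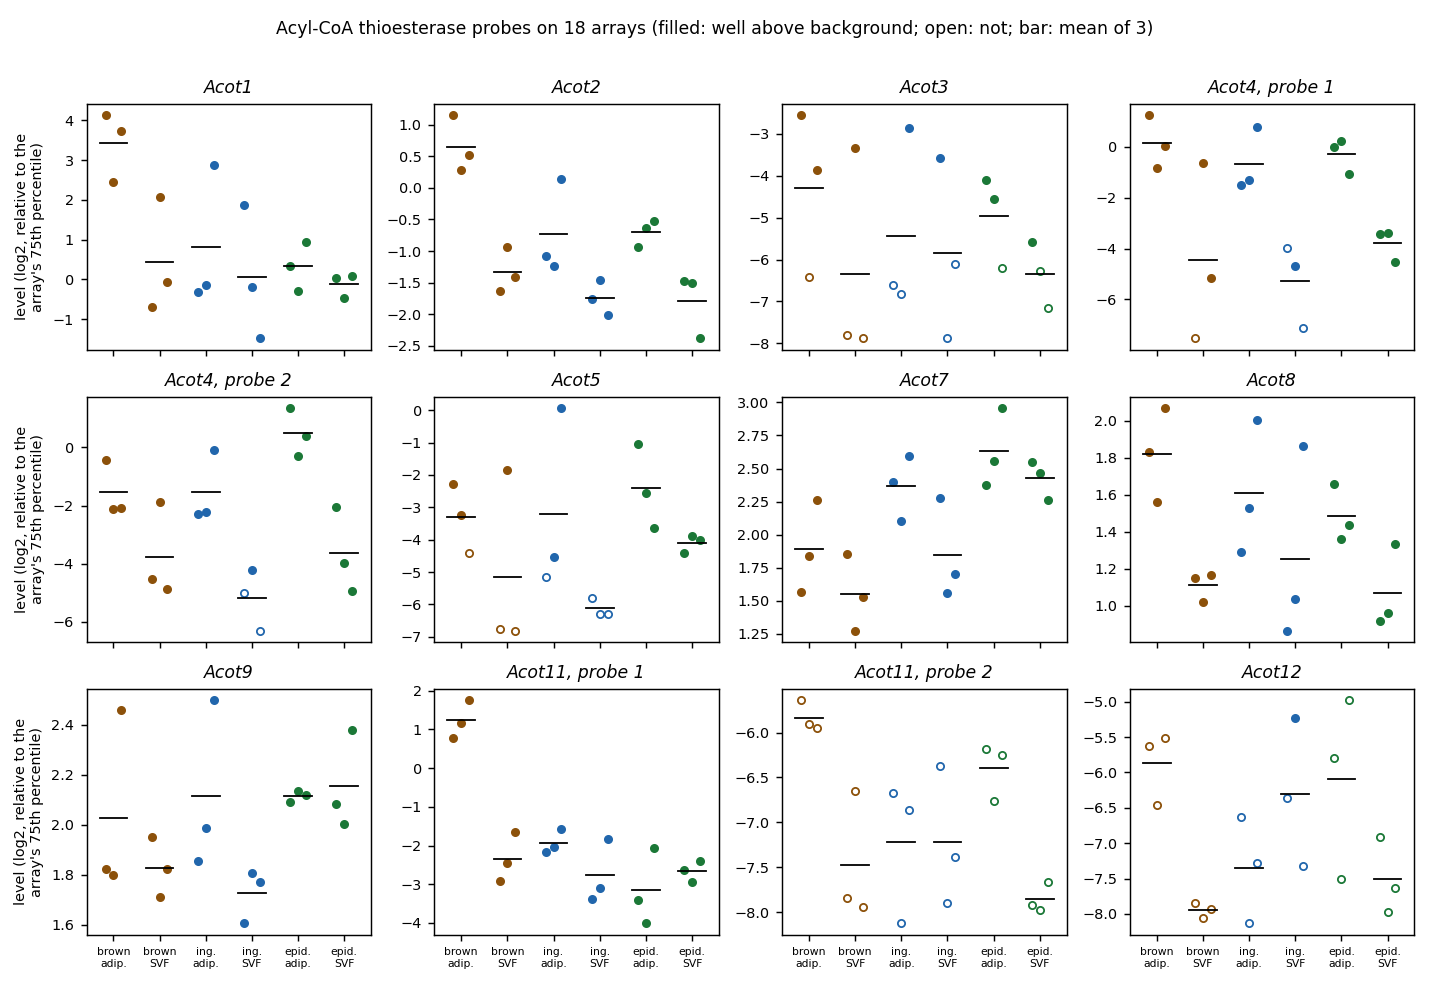
Level of each acyl-CoA thioesterase probe (log2, relative to the array's 75th percentile) on 18 arrays by depot and fraction. Filled points are well above background, open points are not, and bars are means of 3. Acot11 probe 1 lies between 0.77 and 1.75 in brown adipocytes and below -1.5 on every other array.

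Acot11 stood out by its level in brown adipocytes. On probe 1 the 3 brown adipocyte arrays read 0.77, 1.18 and 1.75. Brown SVF read -2.92, -2.44 and -1.65, and inguinal adipocytes -2.17, -2.04 and -1.57. Inguinal SVF read -3.37, -3.09 and -1.84. Epididymal adipocytes read -3.40, -4.01 and -2.07 and epididymal SVF -2.63, -2.95 and -2.40. The brown adipocyte arrays therefore lay above each of the other 15 with no overlap. The order of group means was brown adipocytes (1.23 ± 0.49, SD, n = 3), inguinal adipocytes (-1.93 ± 0.31), brown SVF (-2.34 ± 0.64), epididymal SVF (-2.66 ± 0.28), inguinal SVF (-2.77 ± 0.82) and epididymal adipocytes (-3.16 ± 0.99). Neighbours below the first place overlapped.

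Acot11 was 11.9-fold higher in brown adipocytes than in brown SVF, a log2 difference of 3.57 ± 0.50 (SE). Within the scan day shared by replicates 1 and 2 the difference was 3.66, and within that of replicate 3 it was 3.40. In inguinal fat the same difference was 0.84 ± 0.50 and in epididymal fat -0.50 ± 0.50. Between adipocytes, brown exceeded inguinal by 3.16 ± 0.50 and epididymal by 4.39 ± 0.50. Some markers of other cells moved with these comparisons. In brown adipocytes 6 and 7 of 10 macrophage markers were lower (medians -2.94 and -2.80). So were 7 and 7 of 10 progenitor and fibroblast markers (-2.43 and -1.97). Over all 19222 genes 1122 and 3171 were lower. Mural markers had 3 and 4 of 7 lower, and 0 and 1 higher. Endothelial markers went the other way in part, with 2 of 8 higher and 1 lower in each comparison (medians 1.07 and 0.94). Skeletal muscle markers had 1 and 2 of 8 higher and 0 lower (medians -0.23 and 2.24). Summed macrophage markers lay at 3.58 to 5.66 in brown, 5.18 to 8.07 in inguinal and 6.26 to 7.55 in epididymal adipocytes. Summed progenitor and fibroblast markers lay at 6.18 to 6.76, 7.20 to 9.12 and 7.95 to 8.56. The part of other cells in the differences of Acot11, Acot1 and Acot2 between adipocytes was not tested. The second Acot11 probe was not well above background on any of the 18 arrays, so it neither repeats nor contradicts this.

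Acot1, the cytosolic long-chain enzyme, was also highest in brown adipocytes, at 4.13, 2.44 and 3.73. Brown SVF read -0.68, 2.08 and -0.07. Inguinal adipocytes read -0.32, -0.13 and 2.88 and inguinal SVF 1.88, -0.19 and -1.48. Epididymal adipocytes read 0.33, -0.29 and 0.94 and epididymal SVF 0.05, -0.48 and 0.08. Brown adipocytes were above brown SVF and above epididymal adipocytes without overlap, but inguinal adipocyte replicate 3 lay inside their range. The difference between brown fractions was 2.99 ± 0.93, which was 2.59 on the scan day of replicates 1 and 2 and 3.80 on that of replicate 3. In inguinal and epididymal fat it was 0.75 ± 0.93 and 0.44 ± 0.93. Brown adipocytes exceeded inguinal ones by 2.62 ± 0.93 and epididymal ones by 3.11 ± 0.93.

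Acot2, the mitochondrial enzyme of the cluster, varied less between replicates. Brown adipocytes read 1.15, 0.28 and 0.52 and brown SVF -1.64, -0.93 and -1.41. Inguinal adipocytes read -1.08, -1.24 and 0.14 and inguinal SVF -1.75, -1.46 and -2.01. Epididymal adipocytes read -0.93, -0.64 and -0.52 and epididymal SVF -1.48, -1.50 and -2.38. In each depot all adipocyte arrays lay above all SVF arrays. The difference was 1.98 ± 0.37 in brown fat, 1.02 ± 0.37 in the inguinal depot and 1.09 ± 0.37 in the epididymal one. Brown adipocytes also lay above both white depots without overlap, by 1.38 ± 0.37 and 1.35 ± 0.37. Within scan days the difference between brown fractions was 2.00 and 1.93.

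Acot4, a peroxisomal enzyme that acts on succinyl-CoA, separated the fractions rather than the depots. On probe 1 brown adipocytes read 1.24, -0.83 and 0.03, inguinal adipocytes -1.51, -1.31 and 0.79, and epididymal adipocytes 0.00, 0.23 and -1.08. Brown SVF read -7.54, -0.65 and -5.16, with replicate 1 not well above background. Inguinal SVF read -3.99, -4.69 and -7.13, with only replicate 2 well above background, and epididymal SVF -3.42, -3.38 and -4.52. Adipocytes were above SVF without overlap in inguinal and epididymal fat, while brown SVF replicate 2 reached into the brown adipocyte range. The differences were 4.60 ± 1.30 in brown fat, 4.60 ± 1.30 in the inguinal depot and 3.49 ± 1.30 in the epididymal one. Several SVF readings were near background, and over the alternatives the differences came down to 2.49, 1.56 and 2.27. The cause of these changes was not tested. The inguinal value of 1.56 came from normexp background correction. Between adipocytes of different depots Acot4 differed by 0.82 ± 1.30 and 0.43 ± 1.30, within the spread. Probe 2 gave adipocyte minus SVF differences of means of 2.22, 3.64 and 4.13 in the same order. On probe 2 brown adipocytes lay below epididymal ones without overlap, a difference of -2.03, where probe 1 gave 0.43, so the depots' order for Acot4 depends on the probe.

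Acot5 was dim. Brown adipocytes read -2.27, -3.23 and -4.40, inguinal adipocytes -5.16, -4.54 and 0.08, and epididymal adipocytes -1.03, -2.56 and -3.63. Brown SVF read -6.77, -1.84 and -6.82, inguinal SVF -5.79, -6.29 and -6.29, and epididymal SVF -4.42, -3.89 and -4.02. Inguinal SVF was not well above background on any array. Set against a background limit, inguinal adipocytes were 4.24-fold higher, with 2 of 3 adipocyte arrays above background. That rests on replicate 3: without it the value is 1.36-fold, with 1 of the remaining arrays above background. The limit is the dim group's mean. Per array it takes the higher of the gene's own signal and the lowest signal of any probe well above background. Both values include adipocyte replicate 1, at -5.16, which was itself not well above background, so neither is a strict lower bound. The fitted difference was 1.70 ± 1.32 in epididymal fat. In brown fat it was 1.84 ± 1.32, with 1 of 3 SVF arrays above background.

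A few single arrays stood apart for several members. Brown SVF replicate 2, with Adipoq at 7.16 against 3.15 and 4.42, had the highest brown SVF level of Acot1, Acot2, Acot3, Acot4 and Acot5. Inguinal adipocyte replicate 3 had the highest Adipoq of its group, 8.79 against 7.98 and 7.41. It also had the highest level of every member except Acot12, taking probe 1 of Acot11. Its summed mature adipocyte markers, at 12.00, were near the 11.66 of replicate 1, with replicate 2 at 10.76. Inguinal SVF replicate 1, the array with Wt1, had the highest Acot1, Acot3 and Acot7 of its group, with Adipoq at 2.32 between 0.65 and 3.48. Summed lymphocyte markers were at -0.12 on inguinal adipocyte replicate 3 and at 4.42 and 3.97 on the other inguinal adipocyte arrays. Without brown SVF replicate 2 the brown difference was 3.81 ± 0.96 for Acot1, 6.50 ± 0.98 for Acot4 and 3.49 ± 1.17 for Acot5. Without inguinal adipocyte replicate 3 the inguinal difference was -0.29 ± 0.88 for Acot1 and 3.86 ± 1.44 for Acot4, and brown minus inguinal adipocytes for Acot1 was 3.66 ± 0.88. Without inguinal SVF replicate 1 the inguinal difference of Acot1 was 1.65. The part of adipocyte, immune or mesothelial content in these levels was not tested.

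**Figure D2:**
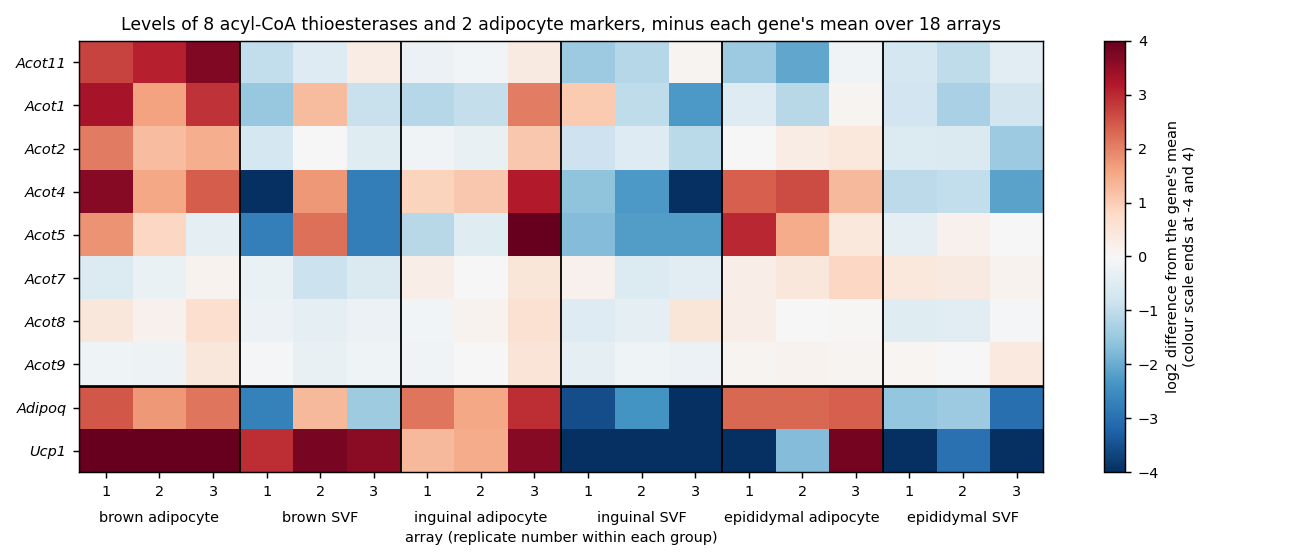
Level of 8 acyl-CoA thioesterases, Adipoq and Ucp1 on 18 arrays as a log2 difference from each gene's mean, with arrays ordered by group and replicate. Acot11 is high on the 3 brown adipocyte arrays, and Acot1, Acot4 and Acot5 are also high on brown SVF replicate 2 and inguinal adipocyte replicate 3, where Adipoq reads 7.16 and 8.79.

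Acot7, Acot8 and Acot9 were well above background on all 18 arrays and moved little. Acot7 group means ran from 1.55 ± 0.29 in brown SVF to 2.63 ± 0.30 in epididymal adipocytes. Brown lay below epididymal without overlap in both fractions, by -0.74 ± 0.27 in adipocytes and -0.88 ± 0.27 in SVF, and SVF within scan days gave -0.95 and -0.74. Acot8, the peroxisomal enzyme with broad substrate range, ran from 1.07 ± 0.23 in epididymal SVF to 1.82 ± 0.25 in brown adipocytes, and its brown fraction difference was 0.71 ± 0.27. Acot9 ran from 1.73 ± 0.11 in inguinal SVF to 2.16 ± 0.20 in epididymal SVF, a span of 0.43 against a spread of 0.23 between replicates.

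Acot3 and Acot12 were at the edge of detection. Acot3 was well above background on 8 of 18 arrays, in brown adipocytes on 2, at -2.56 and -3.87, and in epididymal adipocytes on 2, at -4.11 and -4.56. Its other readings above background were brown SVF replicate 2 at -3.33, inguinal adipocyte replicate 3 at -2.86, inguinal SVF replicate 1 at -3.56 and epididymal SVF replicate 1 at -5.58. Acot12 was above background on 1 array, inguinal SVF replicate 2, at -5.22.

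**Figure D3:**
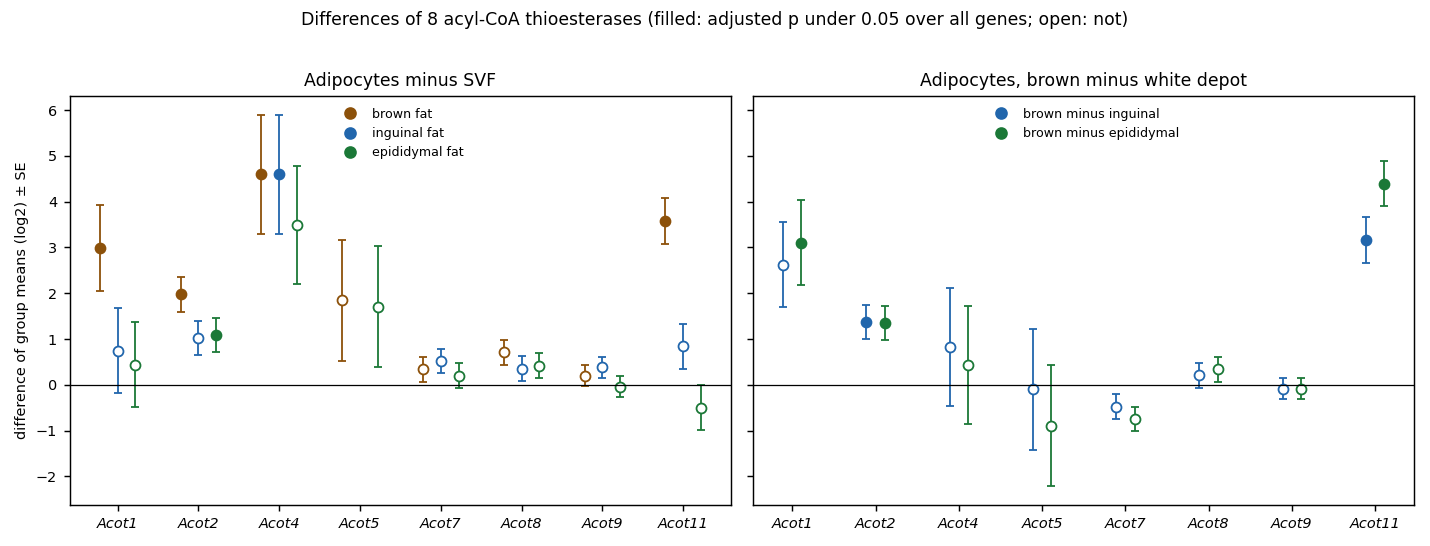
Difference of group means (log2 ± SE) for 8 acyl-CoA thioesterases, adipocytes minus SVF in each depot on the left and brown minus white adipocytes on the right. Filled points had an adjusted p under 0.05 over all genes, and Acot5 in inguinal fat, where SVF was not above background, has no point. The adipocyte minus SVF difference of Acot4 is 3.49 to 4.60 over the depots. Its epididymal difference did not pass, and its brown fractions overlapped. Acot11 is higher in brown adipocytes, by 3.16 and 4.39 over the white depots.

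In limma's moderated test with Benjamini-Hochberg adjustment over all genes at 0.05, 4 of the 8 were higher in brown adipocytes than brown SVF (Acot1, Acot2, Acot4 and Acot11) and none was lower. Over all genes 12.7% were higher and 8.33% lower, 2444 and 1602 genes, and quantile normalization gave 1960 and 1994. The median difference of the 8 was 1.91, beside 0.15 over all genes. In inguinal fat 1 was higher, Acot4, against 9.15% higher and 4.8% lower over all genes. In epididymal fat 1 was higher, Acot2, against 18.1% higher and 6.91% lower, 3481 and 1328 genes, or 2921 and 2608 after quantile normalization. There same-numbered arrays of both fractions deviated together, and with the replicate number as a block 0 passed. Because these measures chose the genes, nothing is read from the counts.

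Between adipocytes, 2 of the 8 were higher in brown than inguinal fat (Acot2 and Acot11; 6.33% of all genes) and 3 higher in brown than epididymal fat (Acot1, Acot2 and Acot11; 12.2%). These share the brown adipocyte arrays. In limma 0 of 8 differed between inguinal and epididymal adipocytes (7.73% of all genes in either direction), with 1 at an unadjusted p under 0.05. Of all genes 170 were higher and 1315 lower there, but 8 and 12 under normexp and 30 and 52 where a probe had to be above background on each of the 18 arrays. In SVF 0 differed between brown and inguinal (2.37%), brown and epididymal (1.77%) or inguinal and epididymal (0.297%) in limma, with 0, 1 and 1 at an unadjusted p under 0.05. These shares moved under normexp on median signals. It called 3604 genes higher and 554 lower in inguinal than epididymal SVF, against 11 and 46. In brown against inguinal SVF it called 568 and 1264, against 364 and 92. The fraction difference itself differed between brown and epididymal fat for 1 member, Acot11, by 4.07 ± 0.70 (2.02% of all genes). Between brown and inguinal fat it was 2.73 ± 0.70 for Acot11. In limma 0 of 8 passed there (0.858%), with 1 at an unadjusted p under 0.05, and 0 between inguinal and epididymal fat (0.078%), with 0 at that level.

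How the members' values moved is given as a description, and supports nothing. Over the alternatives and with 1 array left out, the difference of Acot11 ran from 2.99 to 3.92 in brown fat, 2.03 to 3.39 for brown over inguinal and 3.42 to 4.94 for brown over epididymal adipocytes. The call for Acot1 in brown fat was lost without brown adipocyte replicate 1 or 3 or brown SVF replicate 1 or 3, and its difference then lay between 2.43 and 2.84. The call for Acot4 was lost without the same arrays, at 3.05 to 4.66, and in a fit on only the groups compared. Without inguinal adipocyte replicate 3 or inguinal SVF replicate 3 the inguinal call for Acot4 was lost, at 3.86 and 3.67, as it was under normexp and in a fit on only the groups compared. The call for Acot1 in brown over epididymal adipocytes was lost without brown adipocyte replicate 1 or 3 or epididymal adipocyte replicate 1 or 2, at 2.76 to 3.11. Acot2 lost its call in brown over inguinal adipocytes without brown adipocyte replicate 1 or 3 or inguinal adipocyte replicate 1 or 2, at 1.12 to 1.44, in a fit on only the groups compared, and under normexp, at 0.88. It lost that in brown over epididymal adipocytes without brown or epididymal adipocyte replicate 1, at no more than 1.23, and under normexp, at 1.13. Its epididymal fraction call was lost without any 1 of the 6 epididymal arrays, brown SVF replicate 1 or 3 or brown adipocyte replicate 3, at 0.79 to 1.24.

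Other thioesterases outside the 10 moved in part. The list is Acot6, Acot10, Acot13, Them4, Them5, Them6, Baat, Hibch, Ppt1, Ppt2 and Olah, of which 7 were tested. Adipocytes had 2 higher in brown, 2 higher in inguinal, and 1 higher and 1 lower in epididymal fat, with medians of 0.70, 0.81 and 0.12 beside 0.15, 0.01 and 0.07 over all genes. Hibch, a mitochondrial hydrolase of valine breakdown, was higher by 2.62 ± 0.51 in brown (limma adjusted p = 0.00233), 3.57 ± 0.51 in inguinal (adjusted p = 0.000827) and 2.72 ± 0.51 in epididymal fat (adjusted p = 0.00269). Acot13, a mitochondria-associated enzyme, was higher in brown adipocytes than brown SVF by 2.17 ± 0.38 (limma adjusted p = 0.00107) and than epididymal adipocytes by 1.69 ± 0.38 (limma adjusted p = 0.00521). Them4 was higher in brown than inguinal adipocytes by 1.09 ± 0.27 (limma adjusted p = 0.018) and than epididymal ones by 1.02 ± 0.27 (limma adjusted p = 0.0127). Acot10, a mitochondrial relative of Acot9, was higher in inguinal adipocytes than inguinal SVF by 1.00 ± 0.25 (limma adjusted p = 0.0172). Ppt1, a lysosomal palmitoyl-protein thioesterase, was lower in epididymal adipocytes, at -0.70 ± 0.20 (limma adjusted p = 0.0219). Acot6, the last gene of the chromosome 12 cluster, differed between fractions by 0.37 ± 0.37, 0.81 ± 0.37 and 0.12 ± 0.37 and did not pass. Some of these calls were lost with 1 array left out. For Acot10 these were inguinal SVF replicate 1 and inguinal adipocyte replicates 2 and 3, with adjusted p in limma of up to 0.077. For Them4 they were brown adipocyte replicate 1 or 3 or inguinal adipocyte replicate 1 in the inguinal comparison (up to 0.0739), and brown adipocyte replicate 1 or epididymal adipocyte replicate 3 in the epididymal one (up to 0.0521). For Ppt1 they were epididymal SVF replicate 2 or 3 or epididymal adipocyte replicate 1 (up to 0.103). The calls for Hibch and Acot13 held without each array.

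The synthetases run the opposite reaction. Of 9 tested long-chain synthetases and fatty acid transport proteins, 2 were higher and 2 lower in brown, 3 and 1 in inguinal, and 3 and 2 in epididymal adipocytes. Acsl1, the main long-chain synthetase of fat, was higher by 2.86 ± 0.72 in brown (limma adjusted p = 0.0105), 4.81 ± 0.72 in inguinal (adjusted p = 0.00101) and 3.12 ± 0.72 in epididymal fat (adjusted p = 0.00706). Slc27a2 was higher by 4.51 ± 1.07, 6.43 ± 1.07 and 3.14 ± 1.07 (limma adjusted p = 0.00759, 0.00197 and 0.0443), and by 7.11 ± 1.07 in brown over epididymal adipocytes (adjusted p = 0.000496). Slc27a3 was lower in adipocytes of each depot, at -1.30 ± 0.27, -0.85 ± 0.27 and -1.22 ± 0.27 (limma adjusted p = 0.00336, 0.0489 and 0.00555). Of 8 short- and medium-chain synthetases 6 were higher in each depot and 0 lower. Acss1, a mitochondrial acetyl-CoA synthetase, was higher in brown adipocytes than brown SVF by 2.22 ± 0.54 (limma adjusted p = 0.00831), than inguinal adipocytes by 2.38 ± 0.54 (adjusted p = 0.0114) and than epididymal ones by 3.88 ± 0.54 (adjusted p = 0.000286). The brown call for Acsl1 was lost without brown SVF replicate 1 or 3, at 2.33 and 2.49, and that for Slc27a2 in epididymal fat on leaving out any of 11 arrays, falling to 1.79 without epididymal adipocyte replicate 3. The inguinal call for Slc27a3 was lost on leaving out any of 16 arrays. Acss1 lost its call in brown fat without brown adipocyte replicate 3, at 1.83, and over inguinal adipocytes without that array or inguinal adipocyte replicate 1, at 2.00 and 2.28.

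Of 5 tested acyl-CoA binding proteins 4 were higher in brown, 2 in inguinal and 2 in epididymal adipocytes. Dbi, the main cytosolic carrier of acyl-CoA, was higher by 2.49 ± 0.37, 2.88 ± 0.37 and 2.34 ± 0.37 (limma adjusted p = 0.000413, 0.000473 and 0.0014). Of 16 peroxisomal acyl-CoA enzymes 12, 11 and 8 were higher and 0 lower, with medians of 1.76, 2.00 and 1.25. Crat, which moves acyl groups between coenzyme A and carnitine, was higher by 2.66 ± 0.43 in brown fat (limma adjusted p = 0.000651) and 2.91 ± 0.43 in inguinal fat (adjusted p = 0.000937). Of 25 PPAR alpha target genes 18, 18 and 10 were higher and 2, 1 and 2 lower, with medians of 2.45, 1.98 and 1.49. Cpt1b, which admits long-chain fatty acid to mitochondria in muscle and brown fat, was higher by 3.93 ± 0.73 in brown fat (limma adjusted p = 0.00158) and exceeded inguinal and epididymal adipocytes by 2.64 ± 0.73 and 4.91 ± 0.73 (adjusted p = 0.0291 and 0.000435). Cpt1a, the form of the same enzyme known from liver, went the other way and was lower in all 3 depots, at -0.96, -1.22 and -1.01. Its brown call was lost without brown SVF replicate 1 or 3 or brown adipocyte replicate 1, and its epididymal call without epididymal SVF replicate 3 or epididymal adipocyte replicate 1. The call for Cpt1b over inguinal adipocytes was lost without brown adipocyte replicate 1 or 3 or inguinal adipocyte replicate 1 or 2, at 2.34 to 2.57. In each depot the 9.15% to 18.1% of all genes that were higher is the background for these counts.

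**Figure D4:**
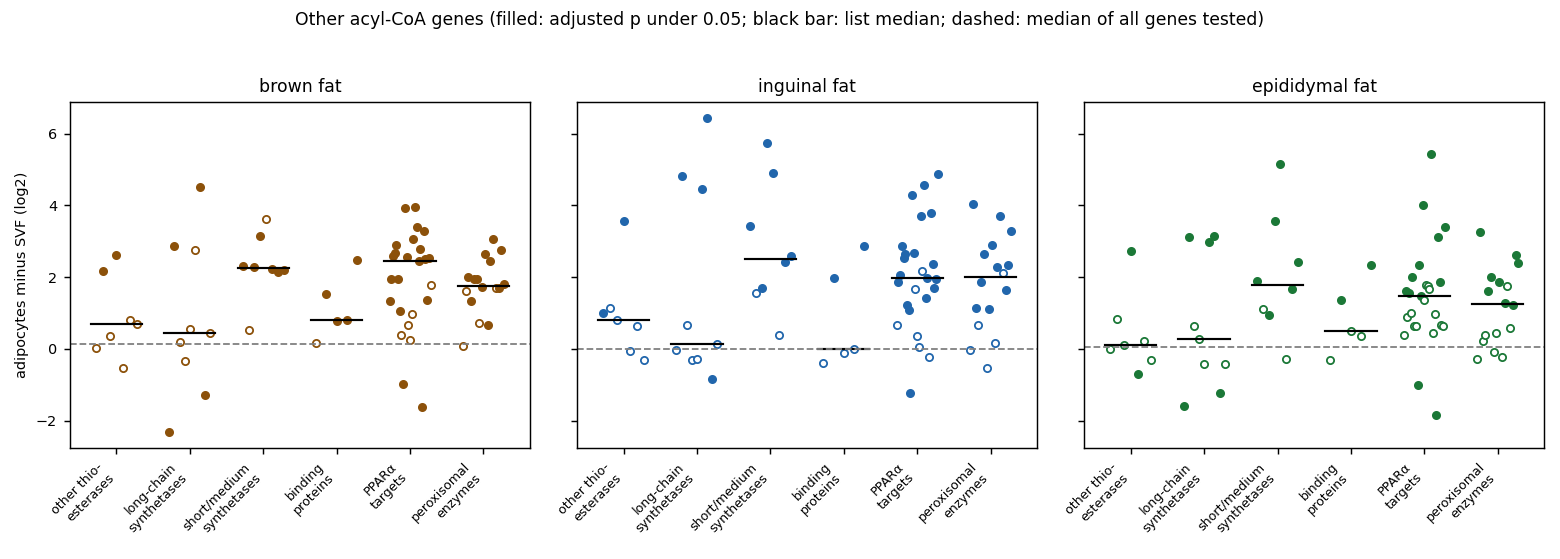
Adipocyte minus SVF difference (log2) of other acyl-CoA genes in each depot, by list. Filled points had an adjusted p under 0.05, black bars are list medians and the dashed line is the median of all genes tested. The medians of the PPAR alpha targets are 2.45, 1.98 and 1.49, and those of the other thioesterases 0.70, 0.81 and 0.12.

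Across the 18 arrays, which share depot, fraction and software, the genes closest to each member by Pearson correlation were as follows. Acot11 was closest to Impa2 (r = 0.971), Slc25a11 (0.943) and Gk (0.941). Acot1 was closest to Pecr (0.94), Naprt (0.938) and Sec14l4 (0.928), and Acot2 to Dld, Pcca and Cox6b1 (0.952 each). Acot4 was closest to Exd1 (0.966), Gstz1 (0.959) and Negr1 (0.958), and Acot5 to Zwint (0.902), Aldh3b3 (0.884) and Tekt1 (0.854). Acot8 was closest to Rfxank and Borcs8 (0.947 each) and Brd7 (0.943). Acot9 was closest to Hgsnat (0.863), Fgf11 (0.853) and Rnpep (0.852), and Acot7 to an unnamed transcript (0.874), Myl12b (0.852) and Rhod (0.83). Among members, Acot4 and Acot5 correlated at 0.823, Acot1 and Acot2 at 0.822, and Acot11 at 0.72 with Acot2 and 0.112 with Acot5. Adipoq correlated at 0.926 with Acot4 and 0.35 with Acot11, and Ucp1 at 0.513 and 0.689. Within the 9 adipocyte arrays Adipoq correlated at 0.684 with Acot4 and -0.156 with Acot11, and Ucp1 at 0.175 and 0.92. Within the 9 SVF arrays the values were 0.789 and -0.021 for Adipoq, and 0.112 and 0.228 for Ucp1. Over the 18 arrays Acot2 correlated at 0.788 with Adipoq and 0.798 with Ucp1, and Acot1 at 0.541 and 0.626. Within the 9 adipocyte arrays the values were 0.351 and 0.799 for Acot2, and 0.34 and 0.825 for Acot1.

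Of 15 genes that neighbour or overlap a member or the cluster in RefSeq, 13 were tested. In at least 1 of the 6 comparisons of fractions and of adipocytes 6 passed. Of all 19222 genes, 170 were higher and 1315 lower in inguinal against epididymal adipocytes. In brown against epididymal adipocytes 2353 were higher and 3171 lower. The share of all genes that passed in at least 1 of the comparisons was not computed, so nothing is read from this count. Beside Acot7, Hes2 was higher in epididymal adipocytes than SVF by 2.03 ± 0.33 (limma adjusted p = 0.00145). Gpr153, also beside Acot7, was lower in brown than epididymal adipocytes, at -1.28 ± 0.38 (limma adjusted p = 0.0223), a call lost without any of 4 arrays. Beside Acot8, brown minus epididymal adipocytes was -1.82 ± 0.40 for Zswim1 (limma adjusted p = 0.00456) and 0.85 ± 0.22 for Zswim3 (adjusted p = 0.0121), the latter lost without either of 2 arrays. Ssbp2, beside Acot12, was lower in epididymal adipocytes than SVF, at -0.94 ± 0.21 (limma adjusted p = 0.00524). Next to the cluster, Dnal1 differed by 0.53 ± 0.46, -0.02 ± 0.46 and 0.33 ± 0.46 between fractions of brown, inguinal and epididymal fat and did not pass, and Heatr4 was not tested. Fam151a, which overlaps Acot11, was higher in brown adipocytes than brown SVF by 3.74 ± 1.24 (limma adjusted p = 0.0442), a call lost on leaving out any of 11 of the 18 arrays, with an adjusted p of up to 0.142. Ssbp3, on the other side of Acot11, differed there by -0.11 ± 0.32.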

How the data were processed

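The 18 arrays are one-colour Agilent 4x44K arrays. Per the file headers, the authors' scanner software, Feature Extraction 9.5.3.1 or 10.5.1.1, gave each spot a processed intensity. The deposited series matrix holds log2 intensity with unstated normalization and was one alternative. Control and outlier spots were left out, spots of a probe averaged, and the log2 75th percentile subtracted. No spot was saturated; 49.6 to 87.9% of spots per array were well above background, and 3 arrays a group limit the precision. The filter kept 28603 of 41174 probes. Names came from the RefSeq table by accession for 24375 probes, symbol for 6301 and synonym for 2426, and 8072 kept the array's name.

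Limma 3.58.1 in R 4.3.3 (lmFit, eBayes, two-sided) fitted 6 group means, with 12 residual and 2.97 prior degrees of freedom, and was tested on simulated data. P-values were adjusted over 19222 genes. Members and lists were chosen with earlier results of these data known. Named from each other list were up to 4 genes per comparison with the largest difference that passed without overlap between replicates, of which the text gives a part, and Cpt1a, Acot6 and Slc27a3 in epididymal fat were added after their values were seen. The values of 1 other list gene are not reported here. Neighbours and the 3 closest genes by correlation were fixed by rule. Same-numbered arrays of the 2 fractions deviated together in epididymal fat (r = 0.423, 0.48 and 0.138). In brown fat they did so only for replicate 3 (-0.119, -0.05 and 0.389), and in inguinal fat they did not (-0.136, 0.053 and -0.228). The labels do not say whether same-numbered arrays are paired. Alternatives were quantile normalization, the deposited matrix, normexp on median signals (the mean signal planned for it was absent from 12 files), other filters, probe rules, blocks and arrays left out; normexp and leaving out brown SVF replicate 2 with inguinal adipocyte replicate 3 were chosen after seeing the data.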

Additional observations from a re-analysis of the deposited data

Results flagged for a closer look

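In the limma fit the adipocyte minus SVF difference of Acot11 was 4.07 larger (log2) in brown than in epididymal fat. This interaction term passed, while brown minus inguinal, at 2.73, and inguinal minus epididymal, at 1.34, did not. Acot11 was chosen with its levels known, so these values are a description. Acot11 was 3.57 higher in adipocytes of brown fat and differed by -0.50 in epididymal fat. The gap test for a single sample was not run, since it is not defined here for groups of 3, and arrays that stood apart are named with the results they touch. The scanner software version and the slides of the epididymal adipocyte arrays differed from those of the other 3 groups in this difference, and software and group cannot be told apart there.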

How the results depend on the processing

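Counts are of genes with an adjusted p under 0.05 in either direction, and the cause of each change was not tested. No called difference of a member, or of a named gene of another list, changed sign.

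With 1 array left out at a time, members called ranged from 2 to 5 in brown, 0 to 2 in inguinal and 0 to 2 in epididymal fat. They ranged from 1 to 3 for brown over inguinal and 1 to 4 for brown over epididymal adipocytes, stayed at 1 for the brown minus epididymal fraction difference and at 0 in the other 6 comparisons. For brown, inguinal and epididymal fat in turn, other thioesterases ranged over 2 to 3, 1 to 3 and 1 to 2, long-chain synthetases 3 to 5, 2 to 4 and 2 to 6, short- and medium-chain ones 3 to 7, 4 to 6 and 1 to 6, and binding proteins 2 to 4, 2 to 2 and 1 to 2. PPAR alpha targets ranged over 14 to 21, 15 to 19 and 7 to 15, and peroxisomal enzymes 10 to 14, 8 to 12 and 4 to 9.

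Normexp on median signals gave 0 members in inguinal and 0 in epididymal fat, and 1 each for brown over inguinal adipocytes, inguinal against epididymal SVF and the brown minus inguinal fraction difference. In lists it gave 1 other thioesterase in inguinal and 1 in epididymal fat, 2, 2 and 1 long-chain synthetases in the depots in turn, and 2 short- and medium-chain ones in inguinal fat. It gave 1 binding protein in brown and 1 in epididymal fat, 10 PPAR alpha targets in inguinal fat, and 5 peroxisomal enzymes in inguinal and 5 in epididymal fat. A fit on only the groups compared gave 0 members in inguinal fat, 2 in epididymal fat and 1 for brown over inguinal adipocytes. In inguinal fat it gave 1 other thioesterase, 3 short- and medium-chain synthetases, 1 binding protein, 4 PPAR alpha targets and 5 peroxisomal enzymes.

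In epididymal fat members called were 2 with quantile normalization, the deposited matrix or the mean of probes, 0 with no filter and 3 without brown SVF replicate 2 and inguinal adipocyte replicate 3. The slide or scan day as a block gave 0 members there, with 2 and 3 long-chain synthetases. Probes above background on all 18 arrays gave 0 members in inguinal fat, where Acot4 could not be tested, and 3 long-chain synthetases in epididymal fat. No filter gave 4 other thioesterases in brown fat. Leaving out brown SVF replicate 2 and inguinal adipocyte replicate 3 gave 1 member for inguinal against epididymal adipocytes and 1 other thioesterase in inguinal fat. Leaving out inguinal SVF replicate 1 and epididymal adipocyte replicate 3 gave 0 members in epididymal fat and 1 for the brown minus inguinal fraction difference, as did the deposited matrix there. In lists it gave 1 other thioesterase in inguinal fat, and 2 long-chain synthetases, 1 binding protein and 5 peroxisomal enzymes in epididymal fat.

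The replicate block gave 0 members in epididymal fat, 1 for inguinal against epididymal adipocytes and 1 for the brown minus inguinal fraction difference. In brown and inguinal fat same-numbered arrays did not all deviate together, and the labels do not say whether they are paired. No other count of members or list genes moved by over 1.5 times under the replicate block.

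Over all genes, normexp called 1171 higher and 741 lower in brown fat, against 2444 and 1602, and 271 and 70 in inguinal fat, against 1758 and 922. The median difference of all genes in brown fat was 0.15, and -0.03 after quantile normalization, -0.02 in the deposited matrix and 0.31 after normexp. Brown over inguinal adipocytes had 1217 genes higher and 1122 lower, and 976 and 1350 after quantile normalization. Dim members are limited by background: Acot3, Acot4, Acot5 and Acot12 have at least 1 group with no more than 1 array above it.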
